A study of Mus musculus with 10 samples.

Results

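Genes known from hair follicle stem cells (HFSCs) were examined in RNA-seq libraries of mouse cutaneous tumors. The set held 10 genes, *Sox9*, *Cd34*, *Nfatc1*, *Lgr5*, *Lgr6*, *Lhx2*, *Lrig1*, *Tcf3*, *Tcf4* and *Tbx1*, which were found by their symbols among the 35275 genes listed for every tumor. HFSCs are a cell of origin of squamous cell carcinoma (SCC) in mice, and the study asked whether lactate dehydrogenase activity in these cells matters for the tumors they form. RNA was measured in 10 tumors, 5 labelled LDHA-/- (*Ldha*-null below) and 5 labelled wild type, each from its own mouse by the series description, although the text of the study counts more tumors. The mice of the study carried floxed *Ldha* where it was to be deleted, together with *p53* fl/fl, recombined by K15-CrePR or *Lgr5*-CreER in HFSCs, or were treated with DMBA and TPA, all on a mixed C57BL6/FVB background. The model behind the sequenced tumors is not named, so the age of these mice at harvest, which differed between the models, is not known. The labels call the source squamous carcinoma cells, but the protocol starts from fresh tumors with no sorting, so stroma, vessels, leukocytes and adjoining skin can add to each library.

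The bulge is the resting niche of HFSCs at the base of the permanent follicle, and its cells are kept quiescent and undifferentiated by a small group of transcription factors. *Sox9*, *Lhx2*, *Nfatc1* and *Tbx1* belong to that group, *Lgr5* and *Lgr6* are receptors for R-spondins that amplify Wnt signals, *Lrig1* restrains growth factor receptors in the upper follicle, and *Cd34* is the surface sialomucin used to sort bulge cells. None of these genes is limited to the follicle. *Cd34* is also a classical marker of vessels and is present on many fibroblasts, *Nfatc1* acts in muscle, leukocytes and bone, and *Tcf4* and *Tcf3* are broadly used. In the tables the symbols *Tcf3* and *Tcf4* are the basic helix-loop-helix E proteins E2A and E2-2, whereas the factors called *Tcf3* and *Tcf4* in the follicle literature are the HMG-box proteins encoded by *Tcf7l1* and *Tcf7l2*. Both pairs are therefore reported here.

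The libraries held 12969508 to 17694201 counted fragments. The targeted gene was read first. *Ldha*, which encodes the A subunit of lactate dehydrogenase, stood at 1882, 246, 1288, 542 and 324 FPKM (fragments scaled by gene length and library total) in *Ldha*-null tumors 1 to 5 and at 390, 340, 345, 589 and 2824 FPKM across wild-type tumors 1 to 5. The groups overlapped, with a log2 fold change of 0.33 (adjusted p = 0.999, edgeR), so the total level of this gene did not separate the labels, and whole-gene counts do not show whether an exon was removed. *Ldha*-null and wild type are therefore used as the labels give them. The first principal component of all genes held 43.4% of the variance and set 3 tumors apart, which were *Ldha*-null 1, *Ldha*-null 3 and wild-type 5. Skeletal muscle markers summed to 87250 FPKM in *Ldha*-null tumor 1, against at most 205 FPKM in any other. Keratinocyte markers reached a sum of 5354 FPKM in *Ldha*-null tumor 1, 34540 in number 3 of that group and 38250 in wild-type tumor 5, and came to 265 to 3673 FPKM in the remaining 7 tumors. The differences of the 10 genes are therefore given with and without these 3 tumors, that is, also for *Ldha*-null tumors 2, 4 and 5 against wild-type tumors 1 to 4.

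All 10 genes were detected in every tumor, and 7 of them reached 1 FPKM in each. By the mean over 10 tumors (± SEM) they ordered as *Tcf4* at 166.6 ± 28.9 FPKM, *Tcf3* at 79.2 ± 10.6, *Cd34* at 77.9 ± 11.7, *Lrig1* at 74.2 ± 10.4, *Sox9* at 30.5 ± 4.74, *Tbx1* at 20.8 ± 5.85, *Lhx2* at 12.2 ± 5.10, *Nfatc1* at 9.33 ± 0.998, *Lgr6* at 2.58 ± 0.594 and *Lgr5* at 1.89 ± 0.450 FPKM. *Tcf3*, *Cd34* and *Lrig1* could not be ordered: *Tcf3* was above *Cd34* in 6 of 10 tumors and *Cd34* above *Lrig1* in 5 of 10. *Sox9* was above *Tbx1* in 6 of 10 tumors, and *Lhx2* above *Nfatc1* in 4 of 10. By contrast *Lrig1* was above *Sox9* in 10 of 10 tumors, and *Nfatc1* above *Lgr6* in 9 of 10. The gene length behind the deposited FPKM differed from the listed length for 8 of the 10 genes, such as 2585 against 7402 bases for *Tcf4*. Per kilobase of listed length, CPM (counts scaled to the library total) placed *Cd34* first at 75.6 ± 11.3, ahead of *Tcf3* at 60.4 ± 8.05 and *Tcf4* at 58.2 ± 10.1, and the order of the 3 most abundant genes thus depended on the length used. *Lgr5* and *Lgr6* were the lowest on both scales.

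**Figure D1:**
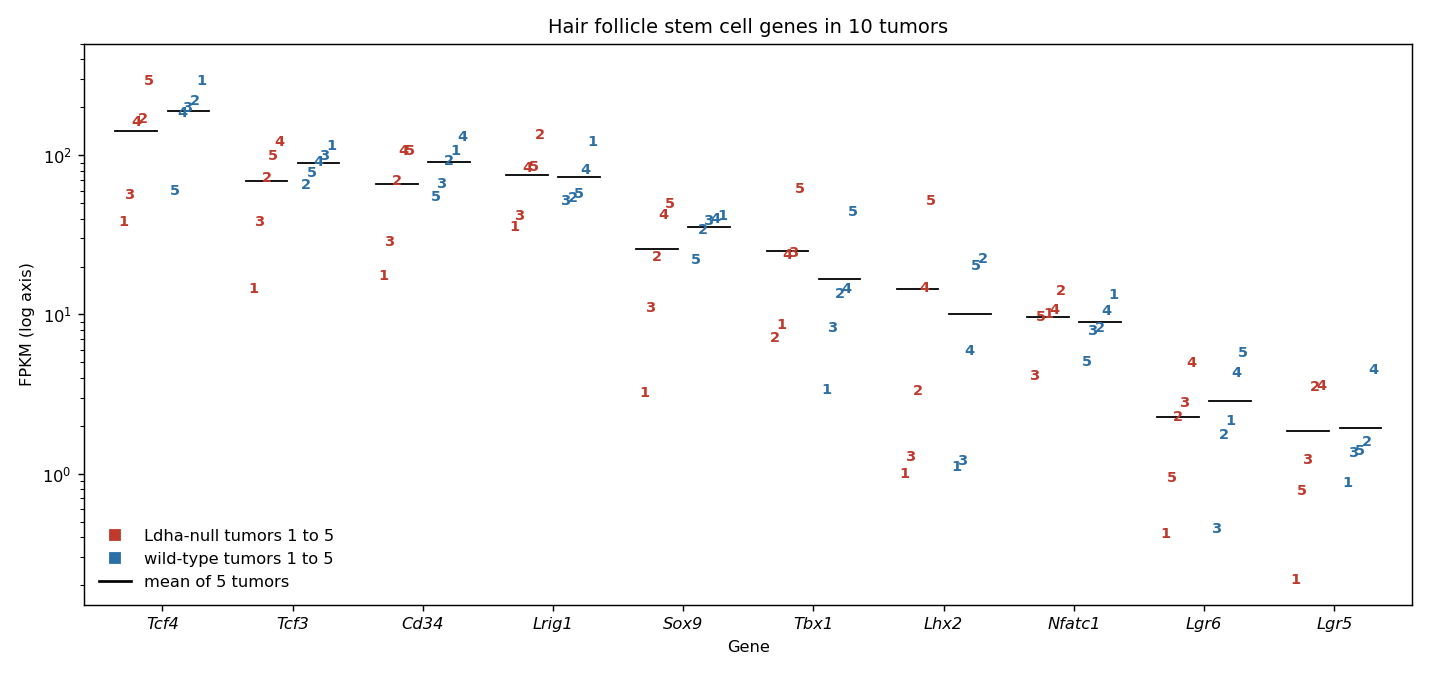
FPKM (log axis) of the 10 hair follicle stem cell genes in each tumor, with digits giving the tumor number, *Ldha*-null tumors in red, wild-type tumors in blue, and a line at the mean of 5 tumors. The genotypes overlap for every gene, and by FPKM *Ldha*-null tumor 1 is the lowest of the 10 tumors for 8 of the genes. On TMM-scaled log2 CPM, not drawn here, it is the lowest for 4 of them, beside 25.4% of all genes tested. The share of all genes lowest in it by FPKM was not counted.

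*Sox9* is the transcription factor that sets up and maintains the bulge, and its gene lies at chr11:112782224-112787760 (mm10). It stood at 3.20, 23.1, 11.02, 42.1 and 49.1 FPKM across *Ldha*-null tumors 1 to 5 and at 41.7, 34.0, 38.7, 39.9 and 22.1 FPKM across wild-type tumors 1 to 5. The 3 lowest of the *Ldha*-null tumors lay below 4 of the 5 wild-type tumors, while *Ldha*-null tumor 5 was the highest of all, so the groups overlapped and the range was wider in the *Ldha*-null group. The means were 25.7 ± 8.79 and 35.3 ± 3.54 FPKM (SEM, n = 5 each), and the log2 fold change was -0.49 (95% interval -1.51 to 0.54, exact permutation p = 0.222). Without the 3 tumors that stand apart it was -0.10 (-0.68 to 0.48). In bulk tumors, fewer cells expressing a gene and less RNA of it per cell cannot be told apart, here and for each gene that follows.

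*Lhx2*, a LIM homeobox factor that holds HFSCs in their undifferentiated state, showed the widest spread of the set. Its levels were 0.994, 3.30, 1.26, 14.7 and 51.7 FPKM across *Ldha*-null tumors 1 to 5 and 1.11, 22.3, 1.20, 5.86 and 20.01 FPKM across wild-type tumors 1 to 5. Each genotype thus held tumors near 1 FPKM and tumors above 10 FPKM, and the highest tumor exceeded the lowest 52.0-fold. The log2 fold change between genotypes was 0.36, with an interval from -2.09 to 2.80 that leaves the direction unknown (exact permutation p = 0.937), and 1.52 (-0.94 to 3.97) without the 3 tumors. Without *Ldha*-null tumor 5 alone it was -1.003.

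*Tbx1*, a T-box factor linked to the renewal of bulge cells, also varied widely. It was measured at 8.57, 7.14, 24.5, 23.6 and 61.2 FPKM across *Ldha*-null tumors 1 to 5 and at 3.37, 13.5, 8.24, 14.4 and 43.9 FPKM across wild-type tumors 1 to 5. Both groups had their highest value in tumor 5, a number that marks no pair named in the labels, and they overlapped over most of their range. Means were 25.0 ± 9.75 and 16.7 ± 7.08 FPKM, with a log2 fold change of 0.55 (-0.99 to 2.09, exact permutation p = 0.341). In the 7 tumors left without the 3 that stand apart the fold change was 1.52 (0.019 to 3.01), at an unadjusted p = 0.0477 and an adjusted p = 0.9999 in edgeR. Even there *Ldha*-null tumor 2, at 7.14 FPKM, lay below 3 of the 4 wild-type tumors.

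*Nfatc1*, a calcineurin-dependent factor that keeps bulge cells quiescent, was among the steadier genes. Its levels were 10.1, 13.97, 4.10, 10.7 and 9.61 FPKM across *Ldha*-null tumors 1 to 5 and 13.2, 8.27, 7.89, 10.5 and 5.02 FPKM across wild-type tumors 1 to 5, which interleaved. The log2 fold change was 0.32 (-0.45 to 1.10, exact permutation p = 0.532), and 0.13 (-0.45 to 0.71) without the 3 tumors that stand apart. *Ldha*-null tumor 1, in the middle of the FPKM range, was the highest of 10 on TMM-scaled log2 CPM, at 6.35 against 4.45 to 5.90 elsewhere, since its scaling factor of 0.589 was far from the 0.881 to 1.20 of the others. That tumor also held the skeletal muscle markers, and their part in this value was not tested.

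*Tcf3* encodes E2A, an E protein that pairs with tissue-specific helix-loop-helix factors. It was at 14.6, 72.1, 38.3, 121 and 99.0 FPKM across *Ldha*-null tumors 1 to 5 and at 114, 65.3, 99.5, 90.5 and 77.3 FPKM across wild-type tumors 1 to 5. *Ldha*-null tumors 1 and 3 were the lowest of the 10, as they were for *Sox9*, and *Ldha*-null tumor 4 was the highest. The log2 fold change was -0.37 (-1.17 to 0.43, exact permutation p = 0.254) and 0.0040 (-0.59 to 0.60) without the 3 tumors. *Tcf4* encodes E2-2 and was the most abundant of the set by FPKM, at 38.2, 168, 56.0, 161 and 291 FPKM across *Ldha*-null tumors 1 to 5 and 292, 218, 198, 183 and 59.7 FPKM across wild-type tumors 1 to 5. The 3 lowest of the 10 were the 3 tumors that stand apart, with the other 7 at 161 FPKM or more. The log2 fold change of *Tcf4* was -0.39 (-1.40 to 0.62, exact permutation p = 0.389), and -0.19 (-0.78 to 0.41) without those 3.

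*Tcf7l1*, the repressor that the follicle field knows as *Tcf3*, was measured at 7.94, 25.9, 8.42, 42.9 and 22.4 FPKM across *Ldha*-null tumors 1 to 5 and at 24.1, 12.4, 17.7, 38.1 and 9.27 FPKM across wild-type tumors 1 to 5. Its log2 fold change was 0.13 (-0.87 to 1.13, exact permutation p = 0.778), and 0.32 (-0.62 to 1.25) without the 3 tumors. *Tcf7l2*, the follicle field's *Tcf4*, was at 5.84, 9.54, 7.94, 21.8 and 37.6 FPKM and at 22.0, 26.8, 32.1, 20.5 and 6.78 FPKM in the same tumors, with a log2 fold change of -0.35 (-1.35 to 0.65, exact permutation p = 0.468), and -0.23 (-1.09 to 0.63) without the 3 tumors. Both overlapped between genotypes, and both were below the E protein that shares their name in the literature in each of the 10 tumors.

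*Lgr5*, the R-spondin receptor that marks cycling stem cells of the lower bulge and germ, was the least abundant gene. It stood at 0.215, 3.49, 1.22, 3.56 and 0.781 FPKM across *Ldha*-null tumors 1 to 5 and at 0.870, 1.59, 1.35, 4.49 and 1.39 FPKM across wild-type tumors 1 to 5. Only 9 fragments lay behind the lowest value, in *Ldha*-null tumor 1, and 191 behind the highest, in wild-type tumor 4. The log2 fold change was -0.065 (-1.52 to 1.39, exact permutation p = 0.746), and 0.26 without the 3 tumors. *Lgr6*, its relative in the isthmus above the bulge, was at 0.420, 2.28, 2.77, 4.99 and 0.941 FPKM across *Ldha*-null tumors 1 to 5 and at 2.14, 1.74, 0.446, 4.32 and 5.75 FPKM across wild-type tumors 1 to 5. Tumors below 1 FPKM and above 4 FPKM occurred in both genotypes. For *Lgr6* the log2 fold change was -0.33 (-1.89 to 1.24, exact permutation p = 0.833), and 0.26 without the 3 tumors.

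*Lrig1*, a transmembrane inhibitor of epidermal growth factor receptors in the junctional zone, was the steadiest gene on the log2 CPM scale. It was at 35.4, 134, 41.7, 83.4 and 84.6 FPKM across *Ldha*-null tumors 1 to 5 and at 121, 53.6, 51.9, 80.3 and 56.7 FPKM across wild-type tumors 1 to 5. The highest and lowest tumors were both *Ldha*-null. The means of 75.7 ± 17.7 and 72.7 ± 13.1 FPKM gave a log2 fold change of 0.14 (-0.57 to 0.85, exact permutation p = 0.635), the one gene of the 10 whose interval stayed within a 2-fold difference in either direction. Without the 3 tumors it was 0.32 (-0.46 to 1.11). *Lrig1* overlaps *Slc25a26* on the opposite strand, which had 1352 fragments over all tumors against 28533 for *Lrig1*, and the protocol does not state that strand was kept.

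*Cd34* lies at chr1:194938821-194961292 (mm10). It was measured at 17.6, 69.1, 28.5, 107 and 107 FPKM across *Ldha*-null tumors 1 to 5 and at 106, 92.3, 66.4, 130 and 55.0 FPKM across wild-type tumors 1 to 5. The 3 lowest were again the tumors that stand apart, and the other *Ldha*-null tumors lay within the wild-type range. The means were 65.8 ± 18.9 and 90.1 ± 13.6 FPKM (SEM, n = 5 each), with a log2 fold change of -0.44 (-1.29 to 0.40, exact permutation p = 0.254), and -0.15 (-0.79 to 0.49) without the 3 tumors.

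None of the 10 genes passed the test between genotypes. The edgeR test called 0 of them at an adjusted p under 0.05, all at 0.999, and called 0.0% of the 15176 genes tested. At an unadjusted p under 0.05 it held 0 of the 10 genes, against 601 of all genes tested (3.96%). Groups that did not overlap occurred for 0 of the 10, against 0.185% of all genes. Log2 fold changes were above 0 for 4 genes and below 0 for 6, with a median of -0.20, beside 0.02 over all genes tested. Without the 3 tumors that stand apart 7 were above 0 and 3 below, with a median of 0.19, and 1 of the 10, *Tbx1*, had an unadjusted p under 0.05, against 1.59% of 15792 genes. The intervals of 6 of the 10 genes spanned over 4-fold from end to end. Only 1 of the 10, that of *Lrig1*, stayed within a 2-fold difference in either direction, so these data do not limit the differences of the others to small ones.

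**Figure D2:**
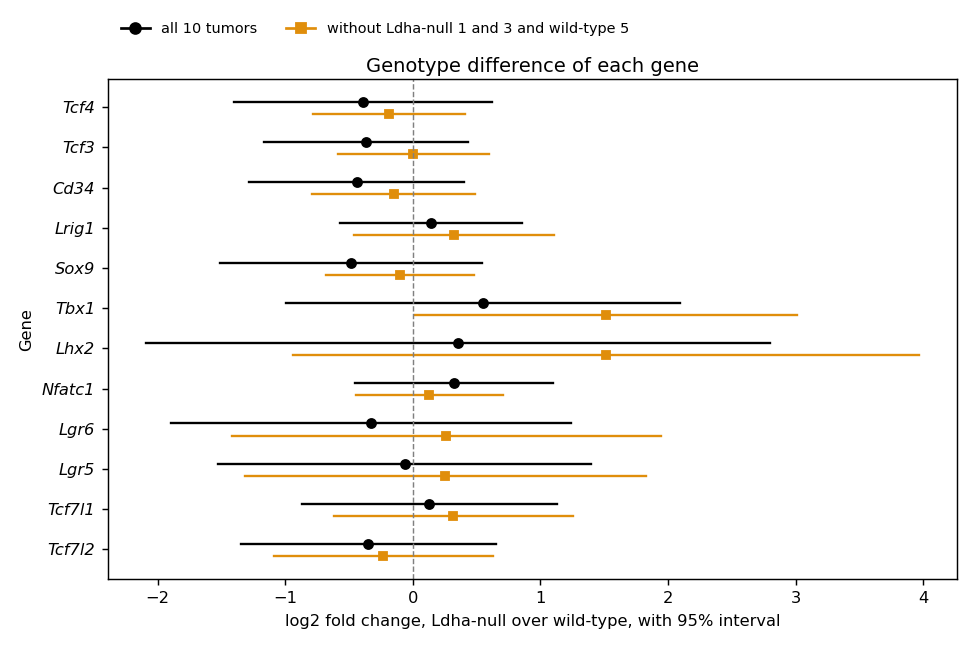
Log2 fold change of each gene, *Ldha*-null over wild type, with its 95% interval from edgeR, for all 10 tumors (black circles) and for the 7 tumors left without the 3 that stand apart (orange squares). The black intervals all cross 0, and among the orange ones that of *Tbx1* (0.019 to 3.01) does not.

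The tumors of each genotype differed widely among themselves. The SD of log2 CPM over the 10 tumors ran from 0.48 for *Lrig1* through 0.58 for *Nfatc1*, 0.65 for *Tcf3*, 0.67 for *Cd34*, 0.80 for *Tcf4*, 0.93 for *Sox9*, 1.07 for *Lgr5*, 1.24 for *Lgr6* and 1.27 for *Tbx1* to 1.958 for *Lhx2*. Of the 10 genes, 8 exceeded the median SD of all genes tested, which was 0.64. The highest tumor exceeded the lowest 3.41-fold for *Nfatc1* and 3.78-fold for *Lrig1* on the FPKM scale, against 15.4-fold for *Sox9*, 18.2-fold for *Tbx1* and 20.9-fold for *Lgr5*. *Ldha*-null tumor 1 was the lowest of 10 for 8 of the genes by FPKM, a scale on which the share of all genes was not counted. After TMM scaling it was the lowest on log2 CPM for 4 of them (*Sox9*, *Cd34*, *Lgr5* and *Tcf3*), where 25.4% of all genes were lowest in that tumor. The 3 tumors that stand apart were the 3 lowest for 2 genes, *Cd34* and *Tcf4*, as were 1525 of all 15176 genes tested, and the 3 highest for 0 of the 10, beside 10.8% of all genes.

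**Figure D3:**
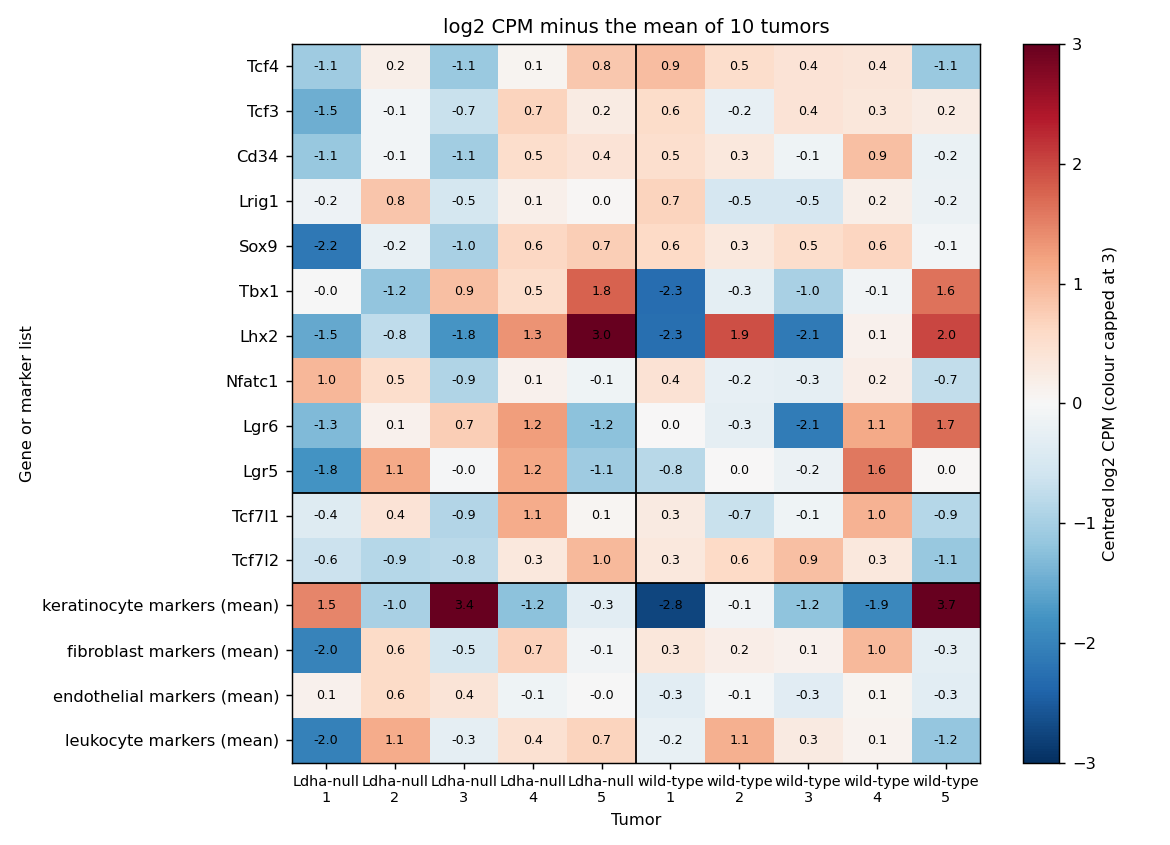
Heat map of log2 CPM minus the mean of the 10 tumors for each gene (rows), with the mean of 4 marker lists at the bottom and tumors in columns, *Ldha*-null left and wild type right of the vertical line; red is above and blue below the mean, with colour capped at 3. *Lhx2* and *Tbx1* change from tumor to tumor within a genotype, and *Cd34* and *Tcf4* are lowest in the 3 tumors that stand apart (*Ldha*-null 1, *Ldha*-null 3, wild-type 5), where keratinocyte markers are high.

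Upstream sequences are shown for the gene with the widest spread (*Lhx2*), the one with the narrowest (*Lrig1*) and one that vessels are known to carry (*Cd34*), so that these 3 patterns can be set beside the DNA next to each start. Each is the 250 bases before the RefSeq start site (GRCm38.p6, the mm10 build), 5′ to 3′ on the strand of the gene, with capitals marking GC boxes (GGGCGG on either strand). *Lhx2* is read from chr2:38339031-38339280 on the plus strand, *Lrig1* from chr6:94700146-94700395 on the minus strand and *Cd34* from chr1:194938571-194938820 on the plus strand. A RefSeq window was found for 6 of the 10 genes.
*Lhx2*: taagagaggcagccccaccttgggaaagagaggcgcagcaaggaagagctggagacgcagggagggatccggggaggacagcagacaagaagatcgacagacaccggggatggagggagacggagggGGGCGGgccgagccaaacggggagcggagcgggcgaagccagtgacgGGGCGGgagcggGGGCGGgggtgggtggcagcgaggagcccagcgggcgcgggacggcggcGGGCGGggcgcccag
*Lrig1*: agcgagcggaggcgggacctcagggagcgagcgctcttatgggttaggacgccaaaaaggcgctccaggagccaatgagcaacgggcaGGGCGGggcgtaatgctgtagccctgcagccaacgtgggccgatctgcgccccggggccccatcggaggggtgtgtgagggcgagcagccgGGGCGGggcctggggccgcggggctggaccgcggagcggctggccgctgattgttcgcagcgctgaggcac
*Cd34*: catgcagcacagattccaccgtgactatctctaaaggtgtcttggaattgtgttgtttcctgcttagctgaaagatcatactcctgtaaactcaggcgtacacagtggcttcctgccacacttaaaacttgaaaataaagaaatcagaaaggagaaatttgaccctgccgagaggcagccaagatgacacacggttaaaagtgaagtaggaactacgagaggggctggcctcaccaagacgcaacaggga
GC boxes numbered 4 before *Lhx2*, 2 before *Lrig1* and 0 before *Cd34*, and 32.7% of the 32851 mouse windows of this length hold at least 1. The GC content was 72.8%, 71.6% and 46.4% in that order. An E-box that E proteins can bind (CAGNTG) was in none of these 3 windows, against 44.8% of all windows, and the Tcf/Lef letters CTTTGAT were also in none, against 3.21%. The window before *Lgr6*, which is not shown, held 1 E-box, 1 GC box and 0 matches to the Tcf/Lef letters. Such matches describe the letters only.

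Other genes of the follicle were read from lists. Of 13 further bulge genes 12 were tested, 0 were called, 1 had an unadjusted p under 0.05, 4 had a log2 fold change above 0 and 8 below, with a median of -0.32 beside 0.02 for all genes. Of all 15176 genes tested, 8015 had a fold change above 0 and 3.96% an unadjusted p under 0.05, which applies to each list below. *Krt15*, the bulge keratin whose promoter drives K15-CrePR, was at 140, 26.3, 136, 27.6 and 74.3 FPKM across *Ldha*-null tumors 1 to 5 and at 27.7, 13.7, 7.55, 15.3 and 61.2 FPKM across wild-type tumors 1 to 5. The 2 highest *Ldha*-null tumors (1 and 3) and the highest wild-type one (5) were the 3 that stand apart, where keratinocyte markers were high, and the part of these was not tested. The groups overlapped in part, and the log2 fold change of 2.04 (0.31 to 3.76) had an unadjusted p = 0.0250 and an adjusted p = 0.999 in edgeR. It was 1.43 (-0.19 to 3.05) without *Ldha*-null tumor 1, and 1.31 (0.24 to 2.38) without the 3 tumors. *Fgf18*, a factor that keeps follicles at rest, had means of 3.10 ± 0.931 and 6.66 ± 1.10 FPKM (log2 fold change -0.996, adjusted p = 0.999 in edgeR). *Runx1* had -0.58 and *Foxc1* -0.42 on the same scale, and neither passed. Without the 3 tumors *Fgf18*, *Runx1* and *Foxc1* had -0.60, -0.16 and -0.32.

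Of 4 genes of the upper follicle, 0 were called and 3 had a fold change above 0. *Krt79*, a keratin of the infundibulum and duct, was at 6.85, 15.1, 20.7, 13.1 and 19.3 FPKM across *Ldha*-null tumors 1 to 5 and at 1.44, 8.18, 1.95, 4.58 and 14.1 FPKM across wild-type tumors 1 to 5. Only 2 wild-type tumors reached the lowest *Ldha*-null one, with a log2 fold change of 1.38 (0.057 to 2.69) and an unadjusted p = 0.0423, adjusted to 0.999 by edgeR, and 1.90 (0.69 to 3.10) without the 3 tumors that stand apart. Of 8 hair germ and matrix genes 6 were tested and 0 called, with *Hoxc13*, a regulator of hair keratins, at 0.528 ± 0.210 and 0.153 ± 0.0398 FPKM (unadjusted p = 0.0149, edgeR) and *Msx2*, a matrix homeobox gene, at 1.25 ± 0.275 and 0.542 ± 0.179 FPKM (unadjusted p = 0.0299, edgeR). *Shh*, the germ's ligand, was at or near 0 in both groups. Of the hair shaft and inner root sheath genes 1 of 6 found was tested, *Tchh* (log2 fold change -0.73), and *Krt25* was too low for the test at 0.899 ± 0.417 and 0.0561 ± 0.0250 FPKM. Of 5 sebaceous genes 2 were tested and 0 called, with *Elovl3*, a fatty acid elongase of the gland, at 4.10 ± 0.854 and 1.74 ± 0.400 FPKM (unadjusted p = 0.0227, edgeR). Without the 3 tumors the log2 fold change of *Msx2* went from 1.31 to 1.11 (-0.23 to 2.46) and that of *Elovl3* from 1.38 to 1.57 (0.47 to 2.66), and *Hoxc13* fell below the filter.

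The pathways around the 10 genes were as follows. Of 7 genes for R-spondins and partners of the Lgr receptors 0 were called, with a median log2 fold change of 0.03. *Lgr4*, the broadly used receptor of the family, had means of 7.81 ± 1.39 and 6.99 ± 0.866 FPKM above those of *Lgr5* and *Lgr6*, and *Rnf43*, a ubiquitin ligase that clears Wnt receptors, had 1.38 ± 0.570 and 0.481 ± 0.174 FPKM (log2 fold change 1.78, -0.067 to 3.63). Of 5 Wnt target genes 4 were tested and 0 called, with *Axin2* at 5.43 ± 0.925 and 6.81 ± 2.11 FPKM and *Notum*, which inactivates Wnt ligands, at 13.2 ± 6.66 and 37.1 ± 7.47 FPKM (log2 fold change -1.55, -3.35 to 0.26). Of 5 partners of the E proteins 0 were called and 1 had an unadjusted p under 0.05 in edgeR, *Id4*, an inhibitor of E protein binding, at 9.90 ± 3.04 and 32.8 ± 12.4 FPKM (log2 fold change -1.73), while *Tcf12*, the remaining E protein, was at 43.2 ± 10.3 and 42.3 ± 11.2 FPKM. Of 4 genes of the Nfat family and its feedback 0 were called, with a median of 0.07, and the calcineurin target *Rcan1* had a log2 fold change of -0.067. *Lrig2* and *Lrig3* had 0.14 and -0.23 on that scale. Without the 3 tumors *Rnf43* had 0.82 (-0.91 to 2.54), *Notum* -1.11 (-2.25 to 0.036) and *Id4* -1.14 (-3.17 to 0.90).

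Markers of cell types were summed per tumor, as an account of what each library could hold. The lists do not separate tumor cells from other cells. Squamous tumor cells can carry keratinocyte markers themselves. The paper also reports, from staining, a gain of mesenchymal and a loss of epithelial markers in all tumors, with or without *Ldha*. Tumor cells can thus add to the fibroblast list too, and which cells carried these markers was not tested. Endothelial markers (10 genes) summed to 53.1 to 144 FPKM in the *Ldha*-null and 70.1 to 109.5 FPKM in the wild-type group, with 9 of 10 fold changes above 0, a median log2 fold change of 0.42 and 0 called. Fibroblast markers (8) summed to 554 to 7500 and 3260 to 8672 FPKM, leukocyte markers (8) to 29.6 to 994 and 149 to 710 FPKM, and keratinocyte markers (9) to 915 to 34540 and 265 to 38250 FPKM. Pericyte markers (4) were at 63.7 to 81.9 and 37.3 to 89.5 FPKM, lymphatic markers (4) at 16.2 to 158 and 14.8 to 218 FPKM, and mast cell markers (6) at 6.23 to 358 and 91.1 to 560 FPKM. Adipocyte markers (4) ranged from 19.9 to 1006 and from 12.2 to 950.3 FPKM, Schwann cell markers (4) from 5.74 to 24.0 and from 6.39 to 14.8 FPKM, chondrocyte markers (7) from 1.39 to 9.28 and from 2.82 to 16.1 FPKM, and melanocyte markers (5) from 1.89 to 37.9 and from 1.18 to 2.40 FPKM. Both adipocyte maxima came from *Fabp4*, which contributed 1006 to the sum of *Ldha*-null tumor 3 and 949.5 to that of wild-type tumor 5. *Adipoq* was low in these tumors (0.36 and 0.66 FPKM), and so was *Plin1* (0.035 in each). Those genes peaked in *Ldha*-null tumor 1 instead, *Adipoq* with 106.9 FPKM and *Plin1* with 12.7. None of these lists, nor the 8 muscle genes, had a gene called between genotypes, and none had a marker at 0 in all tumors. At an unadjusted p under 0.05 in edgeR stood 1 of the endothelial genes (*Pecam1*), 1 of the leukocyte genes (*Cd79a*, of B cells), 1 adipocyte gene (*Adipoq*), 1 melanocyte gene (*Dct*) and all 8 muscle genes, each higher in the *Ldha*-null group, beside 3.96% of all genes. The muscle genes had a median log2 fold change of 9.496 in all 10 tumors and of 0.04 without the 3 that stand apart, while *Adipoq* went from 4.78 to 0.63 and *Dct* from 3.002 to 0.70.

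Vessels carry *Cd34*, and its level was set beside that of their markers. *Pecam1*, the endothelial adhesion molecule also called CD31, was at 10.1, 27.4, 18.1, 17.5 and 21.4 FPKM across *Ldha*-null tumors 1 to 5 and at 11.5, 17.8, 14.2, 16.96 and 12.4 FPKM across wild-type tumors 1 to 5. Its span of 2.71-fold by FPKM was narrower than the 7.43-fold span of *Cd34*, and *Ldha*-null tumor 1 was the lowest for both. On TMM-scaled log2 CPM the spans were closer, at 4.67 to 5.96 for *Pecam1* and 6.27 to 8.33 for *Cd34*. There *Pecam1* was lowest in wild-type tumor 1. The ratio of *Cd34* to *Pecam1* was 1.73, 2.52, 1.57, 6.10 and 5.0 in the *Ldha*-null tumors and 9.22, 5.18, 4.67, 7.69 and 4.42 in the wild-type tumors, in the same order. *Ldha*-null tumors 1, 2 and 3 thus had a lower ratio than every wild-type tumor, and *Ldha*-null tumors 4 and 5 lay among them. *Pecam1* itself had a log2 fold change of 0.49 (0.029 to 0.95), with an unadjusted p = 0.0392 and an adjusted p = 0.999 in edgeR, and 0.48 (-0.072 to 1.03) without the 3 tumors that stand apart. Across the 7 tumors that do not stand apart, *Cd34* and the mean of the endothelial markers gave r = -0.15 (exact permutation p = 0.764, adjusted p = 0.829 over 40 relations) and rho = 0.18 (p = 0.713), with r = 0.39 without the 2 tumors farthest from the median. With the mean of the fibroblast markers the values were r = 0.49 (exact permutation p = 0.273, adjusted p = 0.607) and rho = 0.64 (p = 0.139), with r = 0.30 without the 2 farthest. *Pdgfra*, a receptor of fibroblasts, ran from 3.49 FPKM in *Ldha*-null tumor 1 up to 62.9 FPKM in number 2 of that group. Over 7 tumors neither relation passed its test. Over all 10, with the 3 tumors that stand apart added, *Cd34* and the fibroblast markers gave r = 0.84 (permutation p = 0.00084, adjusted p = 0.0336). *Ldha*-null tumor 1 was the lowest of the 10 for both, at 6.27 and 6.39 on log2 CPM. The parts of vessels, fibroblasts and tumor cells in the *Cd34* level were not measured.

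**Figure D4:**
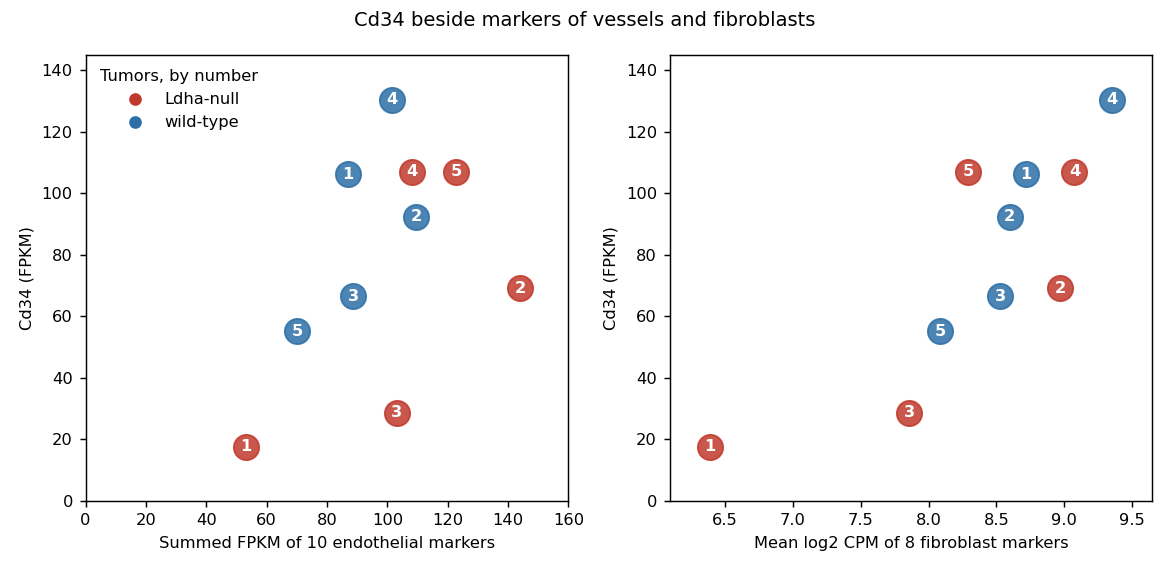
*Cd34* (FPKM) in each tumor against the summed FPKM of 10 endothelial markers (left) and the mean log2 CPM of 8 fibroblast markers (right), *Ldha*-null in red and wild type in blue, with tumor numbers. *Ldha*-null tumors 2 and 3, at 144 and 103 FPKM of endothelial markers, carry less *Cd34* than wild-type tumor 4 at 101 FPKM. *Ldha*-null tumor 1 is lowest on both axes of each panel. On TMM-scaled log2 CPM, not drawn here, its endothelial markers averaged 4.29, inside the range of 3.816 to 4.725 over the 10 tumors.

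The 10 genes were set beside the endothelial, fibroblast, keratinocyte and leukocyte markers in the same way, 40 relations in all over the 7 tumors, and 0 had an adjusted p under 0.05, with 3 below 0.05 before adjustment. *Lgr5* and the fibroblast markers gave r = 0.91 (exact permutation p = 0.00615, adjusted p = 0.246) and rho = 0.89 (p = 0.0123), with r = 0.79 without the 2 farthest tumors. *Lgr6* and the fibroblast markers gave r = 0.85 (exact permutation p = 0.0165, adjusted p = 0.329) and rho = 0.93 (p = 0.00675), with r = 0.85 without the 2 farthest. *Tcf3* and the leukocyte markers gave r = -0.82 (exact permutation p = 0.0272, adjusted p = 0.362) and rho = -0.71 (p = 0.0881), with r = -0.75 without the 2 farthest. For *Sox9* and keratinocyte markers, the pair a tumor of follicle origin brings to mind, r was -0.24 (exact permutation p = 0.577) and rho -0.29 (p = 0.556), with r = -0.066 without the 2 farthest, and for *Lhx2* they were 0.72 (exact permutation p = 0.0667) and 0.68 (p = 0.110), with r = 0.49. None of the 40 passed adjustment over the 7 tumors. Whether tumor cells or other cells carried the fibroblast and keratinocyte markers was not tested. Over all 10, with the 3 that stand apart, 3 relations passed, which were that of *Cd34* above, *Lgr5* with the fibroblast markers (r = 0.80, permutation p = 0.00334, adjusted p = 0.0445) and *Tcf4* with the keratinocyte markers (r = -0.88, permutation p = 0.00241, adjusted p = 0.0445).

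For each gene the genes with the most similar profile over the 10 tumors were found among 13620 genes by the root mean square (RMS) difference of centred log2 CPM. The closest to *Sox9* were *Trerf1* (0.15), *Ugdh* (0.18) and *Glis3* (0.22), and to *Cd34* *Atxn10* (0.15), *Rnd2* (0.21) and *Creb3l2* (0.22). Next to *Nfatc1* came *Klhdc2*, *Zcchc24* and *Fez2* (0.20 to 0.22), next to *Lrig1* *Mesdc2*, *Orai3* and *Cd151* (0.20 to 0.25), next to *Tcf3* *Dak*, *Spred2* and *Plscr3* (0.15 to 0.18), and next to *Tcf4* *Rbpj*, *Ntn1* and *Hsd3b7* (0.21 to 0.24). The more variable genes had no match as near in these units, which are not scaled to the spread of a gene. That spread, as RMS around the mean, was 0.45 for *Lrig1*, 1.01 for *Lgr5*, 1.18 for *Lgr6*, 1.20 for *Tbx1* and 1.86 for *Lhx2*. The values therefore do not rank how close the matches of different genes are. *Mmp28*, *St6gal1* and *Tnfrsf26* were closest to *Lgr5* (0.32 to 0.47), *Pla1a*, *Zfpm1* and *Wnt10a* to *Lgr6* (0.50 to 0.58), *Gm8378*, *Rarres1* and *Tmem180* to *Tbx1* (0.53 to 0.72), and *Gdf10*, *Ccdc149* and *Npas2* to *Lhx2* (1.13 to 1.21). No gene of the set was among the 3 nearest of another.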

How the data were processed

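RNA-seq was analysed in 10 tumors, 5 per genotype by their labels, with 12969508 to 17694201 counts each. The authors enriched mRNA on oligo(dT) beads, sequenced it on a HiSeq2500 (CASAVA 1.8), aligned reads with TopHat2 to mm10 and deposited counts per gene from HTSeq in union mode. FPKM values were also computed and deposited by the authors. For TopHat2 and HTSeq the versions are not given in the sources used.

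The edgeR 4.0.16 test in R 4.3.3 was applied to these counts (filterByExpr with a minimum count of 10 and total of 15, TMM, quasi-likelihood F-test, Benjamini-Hochberg adjustment over the 15176 genes tested, threshold 0.05), with 95% intervals. The biological coefficient of variation was 63.4%. Single genes were also tested two-sided by exact permutation of log2 CPM (prior count 2) over the 252 assignments, where the smallest p is 0.00794. Correlations over 7 tumors or fewer were tested by exact permutation of pairings, and those over all 10 by 100000 random permutations. P-values measure the spread between tumors. The 2 most similar libraries of a genotype still differed beyond counting noise, at a chi-square of 85.5 per degree of freedom. The members, the gene lists (24) and the tests were chosen with earlier results of these data known. The text names the 10 genes, *Tcf7l1* and *Tcf7l2*, up to 4 genes of each other list by smallest p, and the 3 nearest genes by profile, and further genes were named after their values were seen. *Adgre1* was matched by its identifier, and 1 listed hair keratin was not analysed here. Alternatives used DESeq2 1.42.0, limma 3.58.1, other scalings, filters and covariates, the tumor number as a block, and fewer tumors. Sequences are from RefSeq tables. One further allele of the mouse models is not reported here.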

Additional observations from a re-analysis of the deposited data

Results flagged for a closer look

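*Tcf4* in wild-type tumor 5, at 59.7 FPKM, lay far below the other 4 wild-type tumors, which stood at 183 to 292 FPKM. On log2 CPM, the scale of the test, the gap to the nearest of them was 0.729 of the whole range of the group. This gap was above the 95% limit of 0.71 that Dixon's test sets for 5 values, and the test was not run on FPKM. It was the only one of 24 groups examined (12 genes in each genotype) to pass, where chance alone would give about 1.2. The same tumor was one of the 2 with the highest keratinocyte markers (38250 FPKM summed) and had 3260 FPKM of fibroblast markers, the lowest of its genotype. Over all 10 tumors *Tcf4* and the keratinocyte markers gave r = -0.88 (permutation p = 0.00241, adjusted p = 0.0445 over 40 relations), against r = -0.19 over the 7 tumors that do not stand apart (exact permutation p = 0.682). With these markers as a covariate the log2 fold change of *Tcf4* between genotypes was -0.088, in place of -0.39. Keratinocyte markers do not tell tumor cells from adjoining skin. The part of either in the low *Tcf4* of wild-type tumor 5 was not tested.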

How the results depend on the processing

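No gene of the set changed its call in any of 251 values computed under the alternatives, and 232 kept their sign. Values that changed sign were all small or had wide intervals. These were *Lgr6* at 0.020 with limma-voom, *Lrig1* at -0.026 and *Tcf7l1* at -0.024 with limma on log2(FPKM + 1), *Lgr5* at 0.0099 with the keratinocyte markers as covariate, *Lrig1* at -0.055 and *Tcf7l2* at 0.088 with the endothelial markers as covariate, and, without the 3 tumors that stand apart, *Lgr5* at 0.26, *Lgr6* at 0.26 and *Tcf3* at 0.0040. For these the cause was not tested. The log2(FPKM + 1) scale moved the median of all genes to -0.10. Leaving out 1 tumor at a time, log2 fold changes ran from -0.66 to -0.25 for *Cd34*, -0.40 to 0.53 for *Lgr5*, -0.75 to 0.15 for *Lgr6*, -1.003 to 0.86 for *Lhx2*, -0.11 to 0.37 for *Lrig1*, 0.056 to 0.51 for *Nfatc1*, -0.78 to -0.24 for *Sox9*, 0.085 to 1.41 for *Tbx1*, -0.64 to -0.16 for *Tcf3*, -0.71 to -0.21 for *Tcf4*, -0.22 to 0.51 for *Tcf7l1* and -0.76 to -0.17 for *Tcf7l2*. The sign changed without *Ldha*-null tumor 1, 3 or 5 or wild-type tumor 4 for *Lgr5*, without *Ldha*-null tumor 5 for *Lhx2*, without *Ldha*-null tumor 2 for *Lrig1*, without wild-type tumor 5 for *Lgr6*, and without *Ldha*-null tumor 4 or wild-type tumor 2 or 5 for *Tcf7l1*. The smallest adjusted p of these genes over 209 alternative values was 0.706, and *Tbx1* without wild-type tumor 5 (log2 fold change 1.41) had the smallest unadjusted one. Over all genes DESeq2 called 1 and had 489 at an unadjusted p under 0.05, against 0 and 601 in edgeR. Over all 10 tumors 3 of the 40 relations to cell type markers passed adjustment, against 0 over 7, and the 3 tumors that stand apart are the ones added.

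With the tumor number as a replicate block, 0 genes were called and 120 had an unadjusted p under 0.05. The labels do not say whether same-numbered tumors came from littermates. Such tumors deviated together with r of -0.045, 0.064, -0.274, 0.551 and -0.511 for numbers 1 to 5, and they were not treated as pairs. Log2 fold changes under the block were -0.78 for *Sox9*, -0.55 for *Cd34* and 0.81 for *Tbx1*. Depth limited *Lgr5* most, with 9 to 191 fragments per tumor. The lengths behind FPKM limit comparisons of level between genes, and reads of overlapping genes may be mixed where strand was not kept.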
